A study of Homo sapiens with 6 samples.

Results

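The PCTAIRE and PFTAIRE kinases with their cyclin Y partners were examined as 7 rows, taken by symbol, of a table that lists 26485 gene names. They were the PFTAIRE kinases *CDK14* and *CDK15*, the PCTAIRE kinases *CDK16*, *CDK17* and *CDK18*, and the cyclins *CCNY* and *CCNYL1*. RNA-seq counts were measured in 6 cultures of HEK293, a line of human embryonic kidney cells. In 3 of them the long noncoding RNA *HSALNG0134318* of 22q11.2 was knocked down by transient transfection of a Smart Silencer, in which small interfering RNAs are mixed with antisense oligonucleotides (knockdown group). The other 3, labelled NC and of WT genotype, served as controls, and the sources used here do not name what these were transfected with (control group). Replicates 1, 2 and 3 carried the label numbers 1, 4 and 5 in the knockdown group (KD) and 10, 11 and 1 in the control group (NC). What these numbers count is not given in the sources used here, and the design text calls the cultures biological replicates. The family was chosen with the difference of *CDK14* between these groups already known, so the group differences of its members are a description and carry no test. The silenced transcript is not a row of the table, so no level of it stands beside the labels.

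Cyclin-dependent kinases need a cyclin to become active. This branch is named after the letters of a short helix near the cyclin contact, in which other cyclin-dependent kinases carry related letters. Cyclin Y is anchored to the plasma membrane through a lipid at its amino terminus. It brings CDK14 to the membrane, where the pair phosphorylates the Wnt co-receptor LRP6 in dividing cells, and it also activates CDK16, a kinase best known from nerve and testis. CDK17 and CDK18 share the PCTAIRE motif with CDK16, CDK15 shares the PFTAIRE motif with CDK14, and cyclin Y-like 1 is a close homologue of cyclin Y.

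The codons of the naming helix show what sets the branches apart. They are shown from the MANE Select transcripts of GENCODE release 44 (GRCh38), with the 21 bases of the motif in capitals inside a 30-base stretch of coding sequence, written 5′ to 3′.
CDK14: acaCCTTTCACAGCTATCAGGGAAgcttct
CDK15: gtcCCATTTACAGCTATCCGAGAAgcttct
CDK16: gcaCCCTGCACCGCCATCCGGGAAgtgtcc
CDK17: gcaCCCTGCACAGCTATAAGAGAAgtttca
CDK18: gcgCCCTGCACTGCCATCCGAGAGgtgtct
Counted from the first base of the motif, the 3 PCTAIRE genes all carried T5G relative to *CDK14*, the change that turns the phenylalanine codon into a cysteine codon, and *CDK15* did not. *CDK15* differed from *CDK14* at 4 of the 21 bases, *CDK17* at 4, *CDK16* at 5 and *CDK18* at 7. The motif lay in exon 5 of *CDK14* at chr7:90790631-90790651 on the plus strand. It lay in exon 4 of *CDK15* (chr2:201812541-201812561, plus), exon 6 of *CDK16* (chrX:47225081-47225101, plus), exon 7 of *CDK17* (chr12:96298870-96298890, minus) and exon 6 of *CDK18* (chr1:205526158-205526178, plus). Neither cyclin held such a motif, and the coding sequences of *CCNY* and *CCNYL1* both opened with ATGGGG, a start codon and a codon for glycine, the residue that takes up the lipid.

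Over whole coding sequences, the kinases shared from 62.6% (*CDK14* with *CDK18*) to 73.1% (*CDK16* with *CDK18*) of the aligned bases, and *CCNY* shared 71.1% with *CCNYL1*. By this measure *CDK14* was no closer to *CDK15* (64.9%) than to *CDK17* (66.1%). At this identity most reads can be told apart, although the handling of reads with several matches is not given in the sources used here. The annotated relative *CCNYL2* had at most 2 counts in any culture. *CDK14* is the longest gene of the family, spanning chr7:90466424-91210590. It shares 201 annotated exon bases with *CLDN12*, of which 0 belong to the MANE Select transcript. *MIR4775*, inside *CCNYL1*, had 0 counts throughout, and the other genes that overlap a member were not among the rows analysed here.

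The libraries held from 13900965 to 16869948 counts. The tests used edgeR's quasi-likelihood test on 14877 genes, with a gene counted as called below 0.05 after Benjamini-Hochberg adjustment. Of these genes 10% were called, 5.4% as higher and 4.64% as lower in the knockdown group, and 26.9% had an unadjusted p under 0.05. Normalized counts are scaled to the mean effective library size and compare cultures, not genes. Control replicate 2 lay apart from the other cultures, at a root mean square log2 difference of 0.445 and 0.486 from control replicates 1 and 3, against 0.271 to 0.315 among knockdown cultures. Of 5 genes that HEK293 cells are known to express, 4 had over 100 counts in every culture, and *PAX2* had 95 to 221. All 11 markers of blood, endothelial, liver and mature nephron cells stayed under 10 counts, with *CD3E*, *HBB* and *UMOD* at 0. The summed marker level was 0.357 to 1.53 counts-per-million (cpm) in the knockdown group and 0.653 to 1.02 in the control group.

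*CDK14* had the largest difference of the family. It had 620, 811 and 792 normalized counts in knockdown replicates 1, 2 and 3, and 223, 237 and 291 in control replicates 1, 2 and 3. The lowest knockdown culture lay far above the highest control culture, so the groups stood well apart. The means were 741 ± 105 (SD, n = 3) and 251 ± 35.7, a 2.95-fold higher level and a log2 fold change of 1.56 (standard error 0.15). By this log2 fold change *CDK14* ranked 21 from the top among all genes tested. The relative spread was alike in the groups, 14.2% and 14.3%, where counting alone would give 3.73% and 6.25%. When each culture was left out in turn, the log2 fold change lay between 1.49 and 1.69. In bulk RNA, more cells that express a gene and more RNA in each cell cannot be told apart, for any gene named.

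*CDK15*, the other PFTAIRE kinase, was close to undetected. It had 7, 8 and 6 reads in the knockdown replicates and 19, 4 and 18 in the control replicates, too few to pass the filter on low counts. Control replicate 2 lay below every knockdown culture and the other controls lay above, so the groups overlapped. Where it was fitted, its value depended on control replicate 2. Its log2 fold change was -1.39 without that culture and -0.91 with no filter. Without knockdown replicate 1, 2 or 3 it was -0.87, -1.03 and -0.84. In the fits with a culture left out *CDK15* passed the filter through its higher control values, so no call of it is read.

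**Figure D1:**
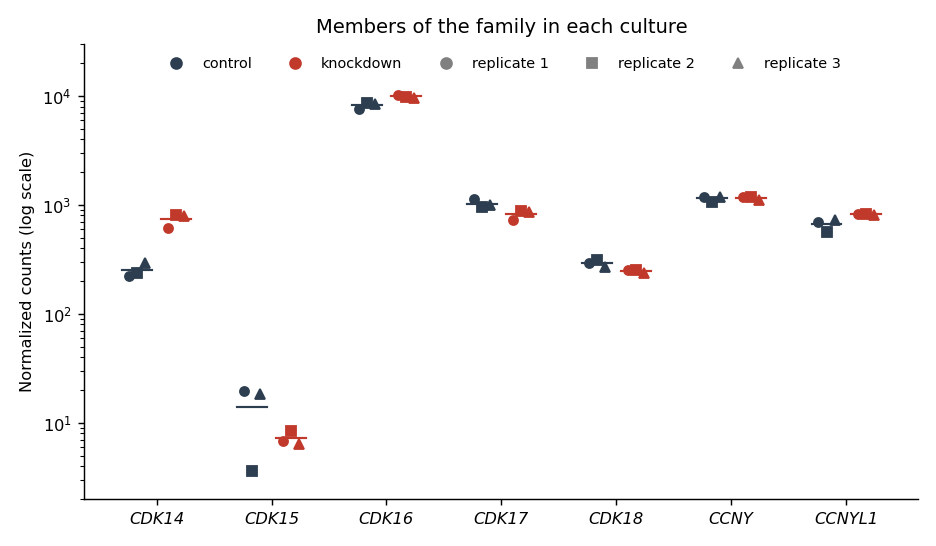
Normalized counts (log axis) of the 7 family members in each of 3 control and 3 knockdown cultures, with the symbol giving the replicate and the bar the group mean. *CDK14* rises from 223 to 291 in the controls to between 620 and 811 in the knockdown cultures. Within each of *CDK16* to *CDK18* and the cyclins, the control and knockdown values lie nearer to each other than for *CDK14*.

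*CDK16*, the most abundant member, had 10264, 9754 and 9675 normalized counts in the knockdown replicates and 7591, 8534 and 8476 in the control replicates. All knockdown values lay above all control values, with means of 9898 ± 320 and 8200 ± 529 (SD, n = 3). The log2 fold change was 0.27 (standard error 0.09), a 1.21-fold higher level. *CDK16* was called by the DESeq2 Wald test (adjusted p = 0.0467) but not by edgeR (0.0753) or limma-voom (0.065). No test is read from these values, since the family was chosen on this comparison. Its highest value was in knockdown replicate 1, the culture in which *CDK14* was lowest within its group.

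The other PCTAIRE kinases lay on the other side of 0. *CDK17* had 722, 874 and 867 normalized counts in the knockdown replicates, against 1128, 959 and 1003 in the control replicates. The groups did not overlap, and the log2 fold change was -0.33 (standard error 0.11). *CDK18* had 252, 250 and 239 normalized counts after knockdown and 291, 312 and 269 in the controls. Here too the groups did not overlap, with a smaller log2 fold change of -0.23 (standard error 0.13). The spread of *CDK18* in the knockdown group was 2.72%, under the 6.44% that counting alone would give, so that 3 cultures gave an uncertain estimate of its spread.

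The cyclins differed from each other. *CCNY* had 1184, 1178 and 1121 normalized counts in the knockdown replicates and 1188, 1073 and 1179 in the control replicates. These values overlapped, the means were 1161 ± 34.8 and 1147 ± 64.0, and the log2 fold change was 0.02 (standard error 0.09). *CCNYL1* had 820, 825 and 814 normalized counts after knockdown and 701, 560 and 728 in the controls. It was higher in every knockdown culture, at a log2 fold change of 0.31 (standard error 0.12). Its spread in the knockdown group, 0.701%, was under the 3.54% that counting alone would give, so this SD is uncertain as well. Control replicate 2 held its lowest value, and without that culture its log2 fold change was 0.20 (standard error 0.09).

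Among the 6 members tested, 4 log2 fold changes were positive and 2 negative, with a median of 0.15 against -0.02 over all genes tested. *CDK14* alone was called, where 10% of all genes tested were, and 5 members had groups without overlap, where 32.2% of all genes tested did. Nothing is read from these counts, since the family was chosen on this comparison. The members called moved with the setting, and nothing is read from those calls either. Without control replicate 2 they were *CDK14*, *CDK16*, *CDK17* and *CDK15*, the last of which passed the filter through its higher control values. After a correction of each library for its trends with GC content and transcript length they were *CDK14*, *CDK16*, *CDK17* and *CCNYL1*.

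**Figure D2:**
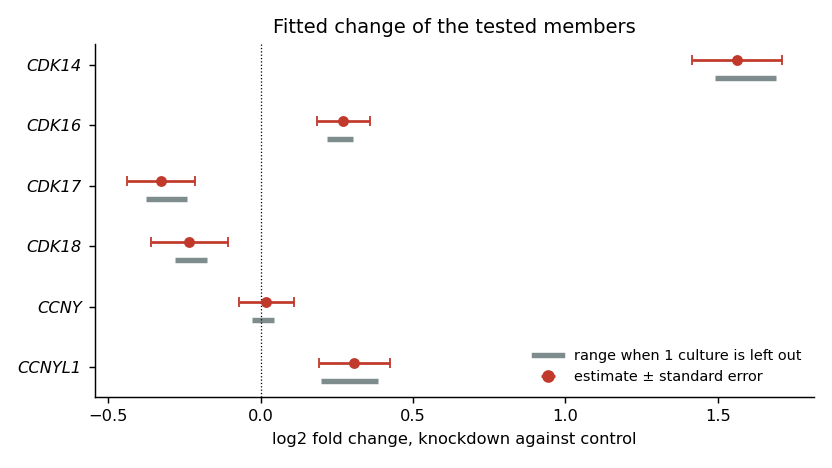
Log2 fold change of knockdown against control for the 6 members tested, as the estimate with its standard error (red) and as the range over 6 fits that each leave out 1 culture (grey). *CDK14* stands at 1.56, the other members lie between -0.33 and 0.31, and only the grey range of *CCNY* crosses 0.

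Levels were compared between genes per length, as cpm per kilobase of exon. In the control cultures *CDK16* stood first at 77.3, 86.9 and 86.3. *CCNY* followed at 12.9, 11.7 and 12.8, and the values of this pair did not overlap. *CDK17* had a mean level of 10.6 ± 0.900 (SD, n = 3) and *CCNYL1* of 9.36 ± 1.28, and these neighbours overlapped. *CDK18* at 2.83 ± 0.213 and *CDK14* at 2.37 ± 0.339 overlapped as well, and *CDK15* came last at 0.149 ± 0.0958. In the knockdown cultures *CDK16* had a mean level of 101 ± 3.25, *CCNY* of 12.6 ± 0.378 and *CCNYL1* of 11.6 ± 0.0812. *CDK17* had a mean level of 8.44 ± 0.884, *CDK14* of 7.02 ± 0.997, *CDK18* of 2.41 ± 0.0654 and *CDK15* of 0.0773 ± 0.0110. In that order *CDK17* and *CDK14* overlapped, and the other neighbours did not. Thus *CDK14* stood below *CDK18* in 2 of the 3 control cultures and above it in all knockdown cultures. The length used moved these levels. With the longest annotated transcript in place of all exons, the mean control level was 173 for *CDK16*, 5.14 for *CDK18* and 0.247 for *CDK15*. *CDK17* then stood above *CCNY*, at 15.0, in the control cultures, and there 0 neighbouring pairs overlapped, with *CDK14* below *CDK18* in all control cultures. In the knockdown cultures *CDK16* was then at 208, and the overlapping neighbours were *CCNYL1* and *CDK17* in place of *CDK17* and *CDK14*.

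**Figure D3:**
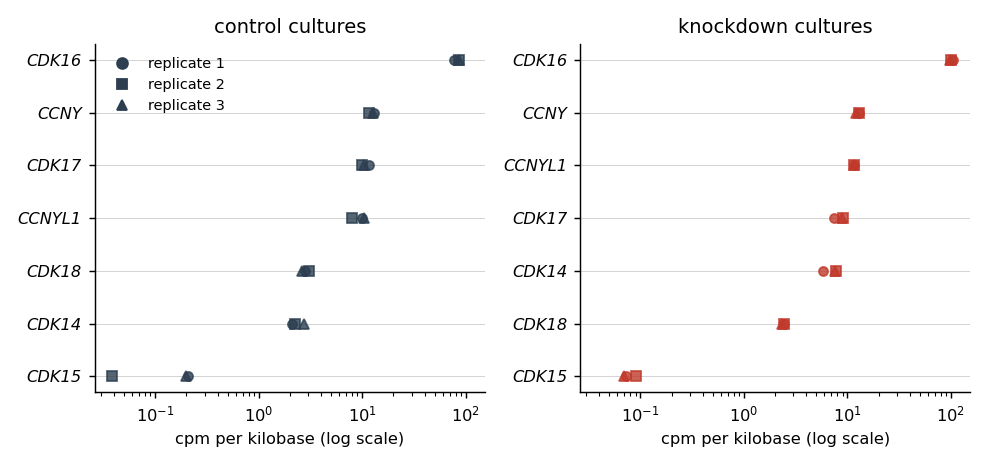
Levels of the 7 members per length (cpm per kilobase, log axis) in 3 control (left) and 3 knockdown cultures (right), ordered by the group mean, with the symbol giving the replicate. *CDK16* stands first in each group, and *CDK14* lies below *CDK18* at 2.37 in the controls and above it at 7.02 in the knockdown cultures.

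Of the summed level of the 5 kinases, *CDK16* made up 82.2% to 85.1% in the control cultures and 83.8% to 86.9% in the knockdown cultures. These ranges overlapped. *CDK14* made up 2.25%, 2.2% and 2.7% in control replicates 1, 2 and 3, and 4.88%, 6.48% and 6.4% in the knockdown replicates. *CDK17* made up 12.3%, 9.66% and 10.1% in the controls, and 6.17%, 7.59% and 7.6% after knockdown. The shares of these kinases therefore lay nearer to each other in the knockdown cultures, with *CDK14* at 0.791 to 0.855 of the *CDK17* level there and at 0.183 to 0.268 in the controls. The summed kinase level was 117.3 to 120.3 in the knockdown group and 94.01 to 102.2 in the control group, mostly *CDK16*. Among the cyclins, the ratio of *CCNYL1* to *CCNY* was 0.899, 0.909 and 0.942 after knockdown and 0.766, 0.677 and 0.802 in the controls. Since a share falls when another member rises, these shares are not separate measurements from the levels.

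**Figure D4:**
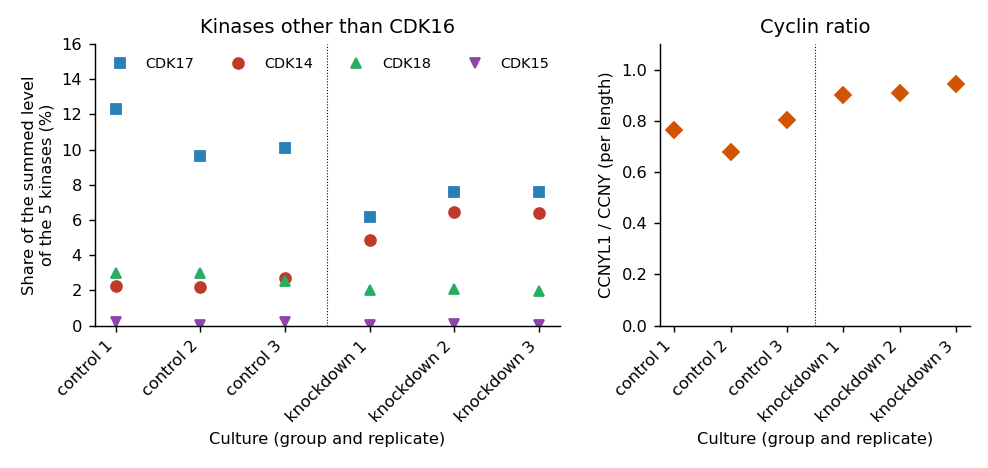
Left, share of the summed per-length level of the 5 kinases (%) held by *CDK17*, *CDK14*, *CDK18* and *CDK15* in each culture, where the rest is *CDK16*; right, ratio of *CCNYL1* to *CCNY* per length. *CDK14* moves from at most 2.7% in the controls to at least 4.88% after knockdown, and the cyclin ratio from at most 0.802 to at least 0.899.

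The chromosomal neighbours of the family were looked up as the tested genes next to each member by start position, a choice made after the values of the members were seen. For 4 of the 7 members the next gene was a Frizzled gene, which encodes a Wnt receptor of the cell surface: *FZD1* after *CDK14*, *FZD7* after *CDK15*, *FZD8* after *CCNY* and *FZD5* after *CCNYL1*. *FZD1* starts 53.8 kb beyond *CDK14* and had 317, 336 and 367 normalized counts in the knockdown replicates, against 516, 579 and 483 in the control replicates. It was lower in every knockdown culture, by the log2 fold change -0.63 (standard error 0.12; edgeR, adjusted p = 0.0086). *CLDN12*, a tight junction gene whose 3′ part overlaps the start of *CDK14* on the same strand, had 639, 772 and 662 normalized counts after knockdown and 1111, 978 and 1013 in the controls. It was lower in every knockdown culture too, at -0.58 (standard error 0.11, adjusted p = 0.0075, edgeR). The genes on either side of *CDK14* were thus lower where *CDK14* was higher, and they were the 2 called genes among the 14 neighbours (10% of all genes tested were called). A neighbour of *CDK18*, *NUAK2*, had a larger fall, at -0.86 (standard error 0.26), with 19.3 to 45.3 normalized counts. Its groups did not overlap, and it was not called (edgeR, adjusted p = 0.063). The adjusted p of *CLDN12* was 0.055 without knockdown replicate 3, and that of *FZD1* was 0.050 and 0.054 without knockdown replicates 1 and 2.

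*FZD5*, 758 bases from *CCNYL1*, had 586, 661 and 626 normalized counts in the knockdown replicates and 794, 804 and 748 in the control replicates. These groups did not overlap, and the log2 fold change, with an edgeR adjusted p of 0.066, was -0.32 (standard error 0.10), or -0.38 with an adjusted p of 0.0098 after the GC content and length correction. *FZD7* (-0.17, standard error 0.15) and *FZD8* (-0.20, standard error 0.23) overlapped between the groups, and each turned positive without control replicate 2, at 0.02 and 0.08.

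The pattern of each member over the 6 cultures was compared with 12375 other genes of at least 50 counts on average, by the root mean square difference of log2 values centred on each gene. The genes nearest to *CDK14* were *SETD7* (a lysine methyltransferase), *NOLC1* (a nucleolar protein), *TPM4* (a tropomyosin), *HABP4* and *OGFR* (a receptor for opioid growth factor), at differences of 0.116 to 0.167. Their log2 fold changes ran from 1.42 for *OGFR* to 1.67 for *TPM4*. Values near that of *CDK14* follow from this way of choosing genes and are not a separate result. The difference is not scaled to a gene's own spread over the cultures, so its size is not compared between *CDK14* and the other members. For the other members the nearest genes lay at 0.0136 to 0.0287. They were *RRP12* and *PIH1D1* for *CDK16*, *GNG2* and *KIAA1551* for *CDK17*, *FH* and *ALDH3A2* for *CDK18*, *DCAF5* and *WDR11* for *CCNY*, and *PRKDC* and *BBS10* for *CCNYL1*. Ordered by Pearson correlation instead, 0 of the 5 genes nearest to *CDK14* remained, as did 0 of 2 for *CDK16*, *CDK18* and *CCNY*. For *CDK17* 1 of 2 remained, *GNG2*, and for *CCNYL1* 1 of 2, *PRKDC*.

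Among the other cyclin-dependent kinases, 15 of 16 were tested and 3 were called, where 10% of all genes tested were, 2 of them higher and 1 lower. *CDK12*, which phosphorylates the tail of RNA polymerase II, rose from 3322 ± 460 to 4738 ± 318 normalized counts (SD, n = 3; log2 fold change 0.51, adjusted p = 0.014, edgeR). *CDK9*, the kinase that releases paused polymerase, rose from 592 ± 114 to 914 ± 51.0 (log2 fold change 0.63, adjusted p = 0.015, edgeR). *CDK1*, the kinase of mitotic entry, fell from 3443 ± 29.9 to 2487 ± 191 (log2 fold change -0.47, adjusted p = 0.0071, edgeR). *CDK6*, the most abundant kinase of the list that was not called, had a log2 fold change of -0.09 (standard error 0.12). The list's median was -0.02, equal to that of all genes tested. Leaving out knockdown replicate 3 took away all 3 calls, and leaving out knockdown replicate 2 or control replicate 1 left 1.

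Of the 28 other cyclins 27 were tested, of which 5 were called (18.5%), all lower, where 10% of all genes tested were called and 4.64% were called lower. *CCND1*, a cyclin of the G1 phase, fell from 1780 ± 50.7 to 1164 ± 34.0 normalized counts (SD, n = 3; log2 fold change -0.61, adjusted p = 0.0014, edgeR). *CCNE2*, which acts at the entry into S phase, fell from 651 ± 17.9 to 407 ± 34.1 (log2 fold change -0.68, adjusted p = 0.0035, edgeR). *CCNA1*, a cyclin of the germ line, fell from 65.6 ± 15.1 to 25.6 ± 10.3 (log2 fold change -1.35, adjusted p = 0.021, edgeR). *CCNG1*, a p53 target, fell from 6224 ± 274 to 4960 ± 153 (log2 fold change -0.33, adjusted p = 0.030, edgeR). *CCND3*, another cyclin D, passed narrowly at a log2 fold change of -0.39 (adjusted p = 0.048, edgeR). *CCNL2* was not called (-0.05, standard error 0.09). In this list 22 log2 fold changes were negative and 5 positive, and the median was -0.14 against -0.02 over all genes tested. The cyclin Y genes were at 0.02 and 0.31. Nothing is read from their place beside this list, since the family was chosen on this comparison. Without knockdown replicate 2 or 3 or control replicate 1 the list had 2 calls, without knockdown replicate 1 it had 3, and without control replicate 2 it had 8. With the replicate number as a block, *CCND3* and *CCNG1* lost their calls, at adjusted p of 0.071 and 0.11 (edgeR). Over the 14 alternative settings *CCND3* lost its call in 8, *CCNG1* in 5 and *CCNA1* in 3, while *CCND1* and *CCNE2* kept theirs in all.

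All 17 inhibitors, activators and modifiers of cyclin-dependent kinases were tested and 2 were called, both lower, a share of 11.8% against 10% of all genes tested. *CDKN1A*, which encodes the inhibitor p21, fell from 3714 ± 653 to 1810 ± 313 normalized counts (SD, n = 3; log2 fold change -1.04, adjusted p = 0.0015, edgeR). *WEE1*, which holds CDK1 inactive, fell from 1871 ± 173 to 1382 ± 102 (log2 fold change -0.44, adjusted p = 0.019, edgeR). *CDC25B* was not called (-0.21, standard error 0.10). *WEE1* lost its call without knockdown replicate 1, 2 or 3 or control replicate 1, at adjusted p of up to 0.096 (edgeR), and without control replicate 2 or 3 the list had 4 calls.

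The kinases and scaffolds that act on LRP5 and LRP6, the step at which CDK14 and cyclin Y work, had 0 calls among the 15 tested of 16. At an unadjusted p under 0.05, where 26.9% of all genes tested lay, edgeR gave 1 of them, higher, and DESeq2 and limma-voom called 0. *LRP6*, named here as the substrate, had 1857, 2103 and 2147 normalized counts in the knockdown replicates and 1867, 1436 and 1839 in the controls. Its lowest knockdown value lay below its highest control value, and its log2 fold change, 0.25 (standard error 0.11), had an adjusted p of 0.19 in edgeR. It was called after the GC content and length correction (adjusted p = 0.023, edgeR). Without control replicate 2 its log2 fold change was 0.135 and it was not called. The 1 call that the list had without that culture was another gene. The log2 fold changes of the list ran from -0.29 for *AMER1* to 0.31 for *AXIN1*, with a median of -0.04, and *CSNK1D*, its most abundant gene, was at -0.04 (standard error 0.10). *CSNK1E* had at most 25 counts and was not tested.

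Among 13 Wnt target genes that feed back on the pathway, all tested, edgeR called 0. At an unadjusted p under 0.05 there were 3 of 13, all lower, where 26.9% of all genes tested lay under it. DESeq2 and limma-voom called 0, and 3 were called by edgeR after the GC content and length correction. Their median log2 fold change was -0.20, with 10 negative and 3 positive values. *ZNRF3*, a ubiquitin ligase that removes Frizzled receptors and the most abundant of these genes, had 649, 714 and 640 normalized counts after knockdown and 801, 802 and 796 in the controls. Its groups did not overlap, and its log2 fold change, -0.26 (standard error 0.10), had an adjusted p of 0.12 in edgeR, or 0.024 after the GC content and length correction.

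The 7 genes of the 14-3-3 proteins, which bind phosphorylated cyclin Y, were all tested and 1 was called, where 10% of all genes tested were. *YWHAG* rose from 3492 ± 333 to 4947 ± 156 normalized counts (SD, n = 3; log2 fold change 0.50, adjusted p = 0.0070, edgeR). Its adjusted p was 0.050 without knockdown replicate 2, and without control replicate 2 the list had 2 calls. *YWHAE*, the most abundant of the group, was at 0.12 (standard error 0.10), and the list's median was 0.09. At an unadjusted p under 0.05, where 26.9% of all genes tested lay, edgeR gave 3 of the 7, 1 higher and 2 lower.

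**Figure D5:**
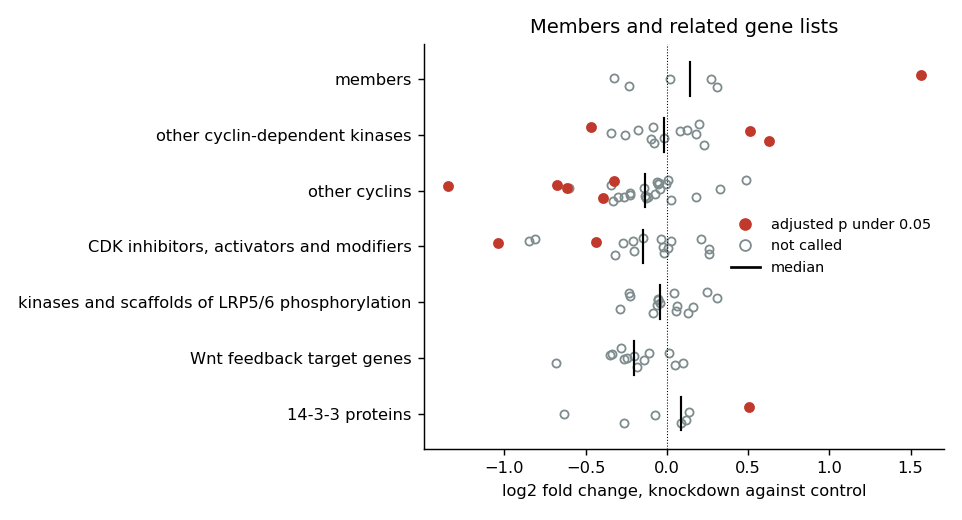
Log2 fold change of knockdown against control for each tested gene of the family and of 6 related lists, with called genes filled in red, uncalled genes open and the median of each list as a bar. All 5 called cyclins lie to the left of 0, from -1.35 to -0.33, while *CDK14* lies farthest to the right at 1.56.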

How the data were processed

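RNA-seq was measured in 6 HEK293 cultures, grouped by their titles. The authors deposited raw counts of reads per gene symbol. Per the labels' processing notes and the paper's methods, reads were checked with FastQC 0.11.9, trimmed with Trim Galore 0.6.6, freed of ribosomal RNA by SortMeRNA, then mapped with STAR and assigned to genes with featureCounts. For the latter tools these sources name different versions. The notes name hg38. The annotation, the strand setting and the treatment of multi-mapping reads are not given in the sources used here.

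Genes were filtered with filterByExpr, normalized with TMM and tested over 14877 genes with edgeR 4.0.16 (robust quasi-likelihood test) in R 4.3.3, with Benjamini-Hochberg adjustment and no block. The study's own test, DESeq2 (1.42.0 here), and limma-voom (3.58.1) were alternatives, next to other normalizations and filters, a replicate block, each culture left out, and a loess correction for GC content and transcript length (span 0.3, values known for 97.3% of genes). Replicates 1, 2 and 3 of the groups deviated from their group means with correlations of -0.20, -0.11 and -0.04, and the cultures numbered 1 in each group (knockdown replicate 1, control replicate 3) with -0.01, so the numbers were not taken as pairs. Per-length levels used all exons of GENCODE release 44, matched by symbol for all 7 members.

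Named genes were the members, at most 5 called genes of each list by smallest p, the most abundant uncalled gene of each list, the genes nearest in pattern and the genes overlapping a member. *LRP6*, the Frizzled genes and *NUAK2* were added after their values were seen. The members and lists were chosen with earlier results of these data known. The scripts were tested on simulated data. An exact permutation test of 3 against 3 cultures cannot go below a two-sided p of 0.1 and was not used.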

Additional observations from a re-analysis of the deposited data

How the results depend on the processing

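Over 14 alternative settings, the log2 fold change of *CDK14* lay between 1.49 and 1.69. The family was chosen on this comparison, so the calls of its members below describe the settings and carry no test. The number of members called was 1 in the main analysis, 2 with the DESeq2 Wald test (*CDK14* and *CDK16*), 4 after the GC content and length correction and 1 to 4 when a culture was left out. Over the whole table, the genes called lower and higher were 690 and 804, became 1369 and 1380 after the GC content and length correction, and ranged from 233 to 1238 and from 289 to 1274 when a culture was left out. With a culture left out, the calls ranged from 0 to 4 for the other cyclin-dependent kinases, from 2 to 8 for the other cyclins, from 1 to 4 for the inhibitors, activators and modifiers, from 0 to 1 for LRP5 and LRP6 phosphorylation and from 0 to 2 for the 14-3-3 proteins. The GC content and length correction gave 1 call for LRP5 and LRP6 phosphorylation, 3 for the Wnt feedback genes and 2 for the 14-3-3 proteins. The replicate block gave 3 calls for the other cyclins and otherwise changed no count by over 1.5 times. With the longest transcript as length, 0 neighbouring pairs overlapped in the control order, against 2.

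The sign of *CCNY* turned after the GC content and length correction (-0.00525) and ranged from -0.0279 to 0.0446 when a culture was left out. Left-out cultures also turned *CDK6* (-0.19 to 0.0338), *CSNK1D* (-0.116 to 0.0456), *FZD7* (-0.269 to 0.0194), *FZD8* (-0.434 to 0.0799), *DCAF5* (-0.0548 to 0.042) and *WDR11* (-0.0252 to 0.0549), and the GC content and length correction turned *DCAF5* (-0.0337). Of 616 values of 44 single genes under the alternatives, 556 kept their direction and their side of the threshold, 32 lost and 17 gained a call and 11 changed sign. The causes were not tested. With 3 cultures a group and control replicate 2 apart from the others, differences as small as those of *CDK16*, *CDK17*, *CDK18* and *CCNYL1* are uncertain.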
